A study of Mus musculus with 2 samples.

Results

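Brain mural cells were 180 of the 4151 kept cells of the Nes-GFP+ brain library, a share of 4.34% (exact binomial 95% interval 3.737 to 5.001, which covers counting error only, like every interval given here). A kept cell had over 200 and under 4000 detected genes and under 40% of its unique molecular identifiers (UMIs, each counting 1 captured transcript) in mitochondrial genes. A member held at least 5 UMIs of Vtn, Rgs5, Pdgfrb and Atp13a5 together, no fewer than of the endothelial genes Cldn5, Flt1 and Pecam1, and at most 2 UMIs of the fibroblast genes Dcn and Slc6a13. Of the 286 kept brain cells with 5 or more UMIs of the 4 mural genes, 38 were left out for their endothelial genes and 68 for Dcn and Slc6a13.

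Mural cells are the cells that wrap the endothelial tube of blood vessels. They comprise pericytes, which sit within the basement membrane of capillaries, and vascular smooth muscle cells, which ring arteries, arterioles and veins and contract through smooth muscle actin (Acta2) and myosin (Myh11). Brain pericytes are recruited by endothelial PDGF-B acting on PDGFRβ, carry the ATP-sensitive potassium channel formed by Kir6.1 (Kcnj8) and SUR2 (Abcc9), and take part in the upkeep of the blood-brain barrier and in the control of capillary flow.

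The series holds 1 droplet library of sorted Nes-GFP+ cells from brain and 1 from lung of adult Nestin-GFP mice of about 6 weeks, which carry GFP under regulatory elements of the Nestin gene, an intermediate filament gene of neural stem cells that vessel cells also use. GEO's labels give the strain C57BL/6, whereas the study's methods describe Nestin-GFP mice bred with wild-type stock of CD1 or mixed CD1 and C3H background. Each library is 1 biological replicate, and whether it pooled animals was not given in the sources used here. Because both tissues were minced, digested with trypsin and sorted for GFP before capture, the cells describe the sorted fraction and not the vessel wall as a whole. With 1 library per tissue there are no replicates, so no test was made of any difference, and a fold is given with an interval for the counting of UMIs alone.

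The 180 cells held 569497 UMIs, with a median of 2671 UMIs per cell (517 to 14733) and 1462 genes. The other 3971 kept brain cells were deeper, with a median of 4277 UMIs and 2057 genes. Levels are UMIs summed over a class and given per 1000000 UMIs of that class (CPM), where 1 UMI over the members is worth 1.76 CPM. The 2 libraries had 15 cell barcodes in common, none of them of a member.

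The 4 genes of the rule describe how the cells were chosen and are not a finding. All 4 were seen in 151 of the 180 cells, 3 in 13 cells, 2 in 7 and 1 in 9. Vtn, which encodes the matrix protein vitronectin, had a median of 54 UMIs per cell (0 to 360) and was listed in 170 cells. Rgs5, a regulator of G protein signalling, had a median of 18 (0 to 62), Pdgfrb a median of 7 (0 to 22), and Atp13a5, an ATPase transporter, a median of 6 (0 to 20). Vtn stood at 6378 CPM in brain fibroblasts and 18047 CPM in the mural cells, and Atp13a5 at 70.2 and 1993 CPM. Brain fibroblasts, 64 kept cells with 5 or more UMIs of Dcn and Slc6a13, held 58 cells that met the mural minimum of 5 UMIs, so the limit on those 2 genes decided the border between the classes.

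The label held for most of the members and not for all. A list of 12 further pericyte genes outside the rule was compared in each cell with 18 genes of astrocytes, stem cells and neuroblasts. In 154 cells the pericyte genes had more UMIs, and in 26 cells, 14.4% (9.66 to 20.4), the neural genes had at least as many. These 26 neural-RNA members summed to 1312 CPM of the pericyte list and 13209 CPM of the neural list, where the other 154 summed to 13047 and 562. They were deeper (median 5510 against 2543 UMIs), 19 of the 26 had under 25 UMIs of the 4 rule genes, and the doublet caller scrublet marked 8 of them against 2 of the other 154. The 26 were not alike. The deepest, with 14733 UMIs, had 360 of the rule genes, 0 of the pericyte list and 15 of the neural list. Another, with 12717 UMIs, had 212, 3 and 36, and some passed on 2 neural UMIs against 1 pericyte UMI. The name of the class thus does not describe each of its cells. What put neural RNA into these barcodes was not tested. Ratios below are over all 180 members unless stated otherwise. Leaving the 26 cells out moved the ratios of 93 named genes against other brain cells beyond their counting intervals and left 84 within them, and against lung pericytes it moved 94 and left 82. Genes of the pericyte and neural lists drew this division and move with it by construction, as Higd1b did from 366 to 489 times the level of the other brain cells and Kcnj8 from 292 to 390.

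**Figure D1:**
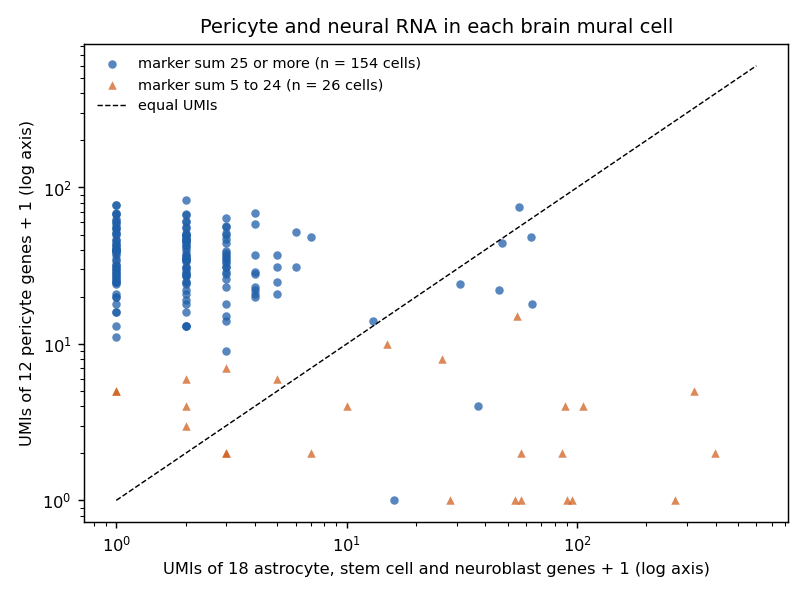
Pericyte and neural RNA in each of the 180 brain mural cells: UMIs of 18 astrocyte, stem cell and neuroblast genes plus 1 (x, log axis) against UMIs of 12 pericyte genes plus 1 (y, log axis), 1 point per cell. Circles are the 154 cells with 25 or more UMIs of the 4 rule genes, triangles the 26 with 5 to 24, and the dashed line marks equal UMIs; most circles lie above the line at 0 to 6 neural UMIs, and most triangles lie below it.

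Values were also taken at the limit of 5 UMIs. The 15 brain cells that fell 1 UMI short had 123 CPM of the pericyte list and 25557 CPM of the neural list. The 3 cells at 5 UMIs had 547 and 15153 CPM, and the 8 cells at 6 UMIs had 231 and 16882 CPM. Cells with 25 or more had 11882 CPM of the pericyte list and 1118 CPM of the neural list, although cells at the limit differed among themselves. Of the 11 cells at 5 or 6 UMIs, 6 had 56 to 266 neural UMIs and 5 had 0 to 6. For the endothelial genes, which the rule limited, 68 of the 180 cells had a UMI of Cldn5, Flt1 or Pecam1, 13 had more than 2, and Flt1 gave 148 of those UMIs. The endothelial list outside the rule summed to 1526 CPM in the 154 members with more pericyte RNA and to 453 CPM in the neural-RNA members.

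The channel and contractile sides of the results that follow are represented by 4 genes, and the 250 bases before their annotated starts are shown for that reason. They were read from RefSeq on GRCm38.p6, in which all 4 matched, and each is written 5′ to 3′ on the strand of its gene. Kcnj8 (chr6:142571615-142571864, minus strand) and Abcc9 (chr6:142702275-142702524, minus strand) encode the 2 subunits of 1 channel and are neighbours on chromosome 6. Myl9 (chr2:156775214-156775463, plus strand) encodes a regulatory light chain of myosin, and Acta2 (chr19:34255374-34255623, minus strand) encodes smooth muscle actin. Capitals mark a match on either strand to the strict form of the CArG box (CC, 6 bases that are each A or T, and GG), the site of serum response factor, or to TGGGAA, the core letters bound by RBPJ, the factor of Notch signalling; the 2 did not overlap. Looser forms of the CArG box were not searched, so a promoter with none marked may still hold one.
Kcnj8: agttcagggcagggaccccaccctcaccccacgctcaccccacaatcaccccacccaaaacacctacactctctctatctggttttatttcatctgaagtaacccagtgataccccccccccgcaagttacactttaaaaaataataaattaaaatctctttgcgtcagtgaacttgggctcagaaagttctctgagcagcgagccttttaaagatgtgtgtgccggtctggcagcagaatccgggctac
Abcc9: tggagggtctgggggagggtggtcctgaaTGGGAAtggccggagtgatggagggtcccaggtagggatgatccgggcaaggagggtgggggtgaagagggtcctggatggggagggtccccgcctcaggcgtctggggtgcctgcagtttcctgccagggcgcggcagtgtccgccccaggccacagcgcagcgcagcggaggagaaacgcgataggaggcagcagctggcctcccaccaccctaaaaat
Myl9: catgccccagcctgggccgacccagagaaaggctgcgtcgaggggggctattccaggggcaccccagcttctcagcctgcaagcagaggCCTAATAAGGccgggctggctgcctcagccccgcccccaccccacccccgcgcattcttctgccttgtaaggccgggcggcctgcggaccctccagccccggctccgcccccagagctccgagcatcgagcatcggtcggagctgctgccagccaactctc
Acta2: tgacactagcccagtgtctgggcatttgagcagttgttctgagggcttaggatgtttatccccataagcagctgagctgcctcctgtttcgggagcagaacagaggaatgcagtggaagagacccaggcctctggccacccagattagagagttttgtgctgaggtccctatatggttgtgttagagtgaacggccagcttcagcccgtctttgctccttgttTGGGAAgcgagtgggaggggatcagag
The strict CArG box stood 161 to 152 bases before the start of Myl9, and TGGGAA stood 221 to 216 bases before Abcc9 and 27 to 22 bases before Acta2. Over all 32851 promoters of the table, windows of the same length held a strict CArG box in 1.47% and TGGGAA in 21.6%. These matches describe the letters alone, and the GENCODE models of Abcc9, Myl9 and Acta2 begin within these windows, from other annotated starts.

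Against all other kept brain cells, 7620 genes averaged 20 CPM or more over the 2 groups and were compared, leaving out the genes of the rule. The mural cells were higher by 4-fold or more in 517 of them (6.78%) and lower in 356 (4.67%), and the median ratio over all genes was 0.904. Since the members were picked from the same cells, these are descriptions and not tests. The minimum is a mean over both groups, so a gene near 0 in the other cells enters only through its mural level and is then higher by construction, and a list's count of higher genes is partly set by the minimum, here and against lung. Each list below is read against those shares and that median.

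The pericyte genes stood highest. All 12 were compared and all 12 were higher by 4-fold or more, with a median ratio of 143. Kcnj8, the pore of the channel (GRCm38 chromosome 6, 142564837 to 142571614), was seen in 146 of 180 cells with a median of 3 UMIs (0 to 19), and its level was 1312 CPM against 4.49 CPM in the other cells, a ratio of 292 (233 to 370). Abcc9, its sulfonylurea receptor subunit (chromosome 6, 142587862 to 142702315), was seen in 145 cells with a median of 2 UMIs (0 to 18) and had a ratio of 195 (156 to 246). Both subunits were near absent from endothelial cells of the same library, at 9.52 and 16.7 CPM, and from fibroblasts, at 2.60 and 10.4 CPM. Against fibroblasts alone Anpep was at 1.88 (1.15 to 3.17) and Ifitm1 at 2.97 (2.43 to 3.65), both under 4-fold. The rest of the list was above 4-fold there. Of the pericyte genes that encode mitochondrial proteins, Higd1b reached 1640 CPM and a ratio of 366 (293 to 462), Ndufa4l2 1617 CPM and a ratio of 192, and Cox4i2 548 CPM and a ratio of 157. Notch3, the Notch receptor of mural cells, had 604 CPM against 6.17, and Cspg4, which encodes the NG2 proteoglycan, 608 CPM against 23.3. Its ratio of 26.1 (22.6 to 30.1) was the lowest of the 12.

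Smooth muscle genes did not move as 1 group. Acta2 was listed in 4 of the 180 cells (18 UMIs) and Myh11 in 10 (18 UMIs), so that 168 cells had neither, 11 had 1 to 4 UMIs of both together, and 1 cell, 0.556% (0.0141 to 3.06), had 5 or more. Tagln had 14 UMIs in 5 cells, and Cnn1, calponin, had 0, which allows at most 5.27 CPM. Other genes of the same list were plain to see: Myl9 was found in 149 of 180 cells with a median of 3 UMIs (0 to 17) and stood at 1191 CPM against 15.3, a ratio of 77.8 (67.7 to 89.6). Mylk, the kinase that acts on that light chain, had 330 CPM and a ratio of 65.2. Des, muscle desmin, had 147 CPM and a ratio of 127, and Casq2, a calcium store protein, 165 CPM and a ratio of 78.2. Of the 15 listed genes 8 reached the minimum, 6 of these were higher by 4-fold or more (the 4 named, with Smtn and Tpm2), Flna and Tpm1 were between, and 7 were too low to compare, with a median ratio of 35.8 over the 8. Smtn was at 0.771 (0.521 to 1.12) of its brain endothelial level. Tpm2 was at 1.08 (0.650 to 1.81) times its fibroblast level. The 4 named were over 4-fold against both of these classes. The mural cells thus carried the regulatory light chain and its kinase with almost no smooth muscle actin or myosin.

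The 1 cell above the limit was chosen by its UMIs of Acta2, Myh11 and the rule genes, which are given as a description. It had 2327 UMIs, of which 14 were Acta2, 8 Myh11, 8 Tagln, 9 Tpm1, 5 Mylk and 3 Myl9. Of mural genes it had 22 UMIs of Rgs5, 6 of Cspg4, 5 of Notch3, 3 of Pdgfrb and Higd1b each, 2 of Vtn and 1 of Ndufa4l2, and it had 0 of Atp13a5, Kcnj8 and Abcc9. A single cell cannot stand for smooth muscle in this library, and 1 of its UMIs is worth 430 CPM, so no counts of genes were made from it. Without it the other 179 members held 4 UMIs of Acta2 in 3 cells and 10 of Myh11 in 9 cells. Outside the members, 8 kept brain cells had 5 or more UMIs of Acta2 and Myh11. All of those UMIs were Acta2 (5 to 18 per cell), none of the 8 had a UMI of the 4 rule genes, and each had 30 to 112 UMIs of the ependymal list.

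Of 14 listed genes that relay contraction, 6 were too low to compare, and the 8 that reached the minimum, some of them through the mural level alone, were higher by 4-fold or more, with a median ratio of 36.1. Gucy1a3 and Gucy1b3, the 2 subunits of the nitric oxide receptor guanylate cyclase, stood at 599 and 873 CPM with ratios of 44.5 (37.7 to 52.5) and 52.0 (45.1 to 60.1). Downstream of cyclic GMP, the phosphodiesterase Pde5a had 191 CPM and a ratio of 17.4, and the kinase Prkg1 52.7 CPM and 12.5. Among calcium-linked channels, Ano1, a calcium-activated chloride channel, had 170 CPM against 1.42, where the voltage-gated calcium channel Cacna1c had only 12 UMIs in all and was not compared.

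Of 12 listed vasoactive receptors and G protein regulators 5 of 7 compared were higher by 4-fold or more, with a median of 52.4. Ednra, the endothelin A receptor, was listed in 52.8% of the cells at 281 CPM, a ratio of 57.9 (44.5 to 75.6), and S1pr3, a sphingosine 1-phosphate receptor, in 60.0% at 386 CPM, a ratio of 53.4. Rgs4, a relative of the rule gene Rgs5, stood at 750 CPM with a ratio of 142 (114 to 178). F2r, the thrombin receptor, had 77.3 CPM and a ratio of 5.21, and Ednrb, the endothelin B receptor, 80.8 CPM against 162 in the other cells. The Ednrb UMIs lay mostly in the neural-RNA members, at 246 CPM against 19.3 in the rest. The angiotensin receptor Agtr1a gave 1 UMI.

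Among growth factor and Notch genes 5 of 9 compared were higher by 4-fold or more, with a median of 4.92. They were the Notch targets Heyl (332 CPM, ratio 76.7) and Hes1 (291 CPM, 7.13), the Notch ligand Jag1 (193 CPM, 4.92), Tgfb1 (73.7 CPM, 7.55) and Ptn, pleiotrophin (3793 CPM, 5.87). Summed, the whole list stood at 5305 CPM in mural cells, 4813 CPM in brain endothelial cells and 7673 CPM in fibroblasts. As a sum it did not set the mural cells above those classes. Pdgfb, the ligand of the rule gene Pdgfrb, had 8.78 CPM in the mural cells and 340 CPM in brain endothelial cells, and Tek, the receptor of angiopoietins, 8.78 and 400 CPM. Pdgfb and Tek were not used to pick either class.

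The basement membrane list gave 11 of 14 compared that were higher by 4-fold or more, with a median of 14.7. Col4a1 and Col4a2, the collagen IV chains, stood at 1178 and 650 CPM, and Col4a1 was 1.53 times (1.39 to 1.69) its level in brain endothelial cells and 1.67 times (1.45 to 1.93) that in fibroblasts. Sparc, a collagen-binding matrix protein, was below both, at 0.586 (0.553 to 0.619) and 0.625 (0.583 to 0.670) of their levels. The laminin chains Lama4, Lamb1, Lamc1 and Lamc3 had ratios of 19.5, 23.8, 17.1 and 27.7 against the other brain cells, and Nid1, nidogen, 35.1. Against fibroblasts alone Lamc3 was at 0.693 (0.530 to 0.908), Lamb1 at 0.876 (0.640 to 1.20) and the proteoglycan gene Bgn at 0.625 (0.524 to 0.745). The neural-RNA members are part of these ratios and lower them for the list as a whole. The list summed to 4959 CPM in those members and 16212 CPM in the other 154, against 10723 CPM in fibroblasts. Ratios of these single genes to fibroblasts without the neural-RNA members are not given here. Igfbp7, a secreted binding protein of the vessel wall, was in 162 of the 180 cells with a median of 12 UMIs (0 to 63), at 3889 CPM and a ratio of 19.9 (18.9 to 21.0). Fn1, fibronectin, was not raised (54.4 CPM against 66.7), and its level was 924 CPM in endothelial cells.

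Transporters and membrane enzymes gave 9 of 10 compared that were higher by 4-fold or more, with a median of 28.9. Slc6a20a, a proline and imino acid transporter, was in 149 of 180 cells at 834 CPM. Slc19a1, the folate carrier, had 806 CPM and a ratio of 63.6 (54.3 to 74.7). The level of Slc6a20a in mural cells was 1.13 times (0.970 to 1.31) that of brain fibroblasts, an interval that includes 1. Without the neural-RNA members it stood at 1104 CPM (1005 to 1210), above the 741 CPM (658 to 832) of fibroblasts. Enpep, a membrane aminopeptidase, parted the classes more, at 188 CPM in mural cells, 0 UMIs in endothelial cells and 7.80 CPM in fibroblasts. Slc2a1, the glucose carrier of the barrier endothelium, was at 82.5 CPM against 1710 CPM in endothelial cells.

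Transcription factors were higher by 4-fold or more in 13 of 14 compared, with a median of 10.3. Tbx2 (300 CPM, ratio 172) and Foxs1 (309 CPM, ratio 143) had the largest ratios of the list, followed by Hic1 at 43.0 (31.7 to 58.4) and Foxd1 at 39.4 (32.9 to 47.4), whose intervals overlapped. Foxd1 and Zic1 were at 1.01 (0.827 to 1.22) and 0.903 (0.769 to 1.06) times their fibroblast levels, intervals that include 1. Without the neural-RNA members Foxd1 stood at 600 CPM (528 to 680) against 458 CPM (393 to 530) in fibroblasts. Zic1 stood at 803 CPM (719 to 894) against 702 CPM (621 to 791), so its direction turned while these intervals overlapped. Tbx18, used to trace mural cells, had 93.1 CPM in mural cells and 380 CPM in fibroblasts, while Ebf1 had 885 and 72.8 CPM. Myocd, the co-activator of smooth muscle genes, was too low to compare.

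**Figure D2:**
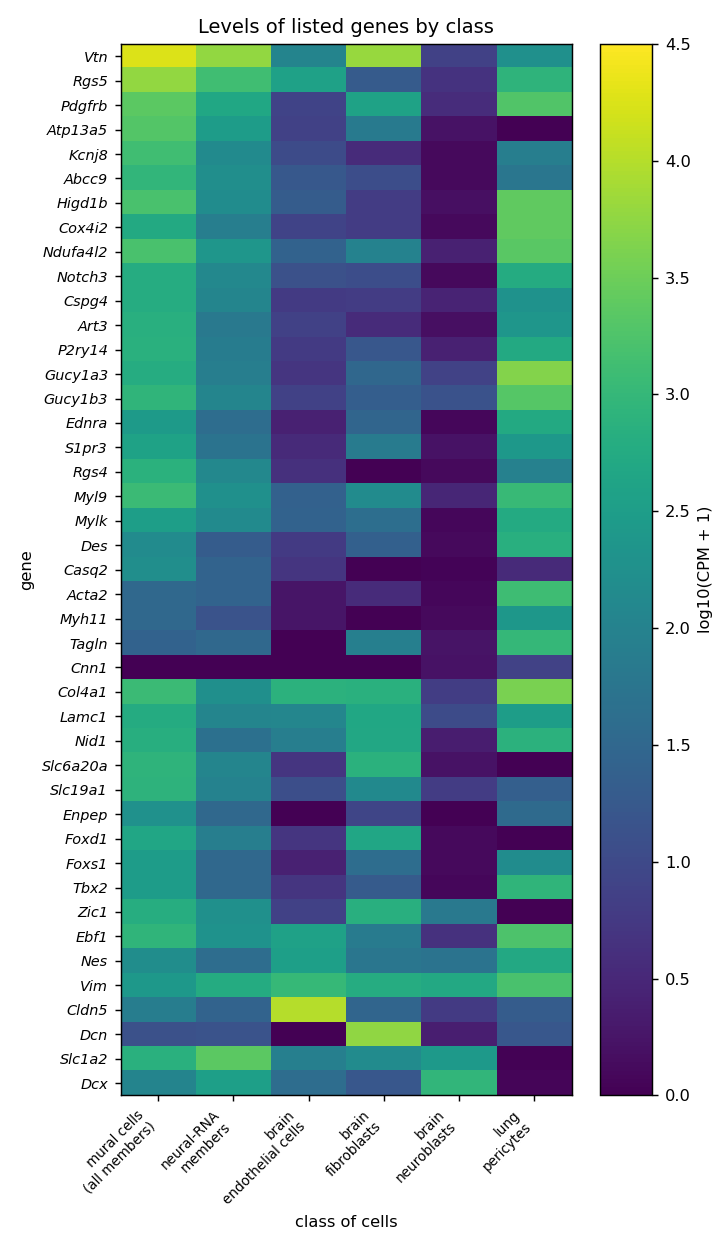
Levels of listed genes (rows) in 6 classes of cells (columns), as log10 of CPM plus 1, UMIs summed over each class. Kcnj8, Abcc9 and the rule gene Atp13a5 are brightest in the mural column, Vtn, Slc6a20a, Foxd1 and Zic1 are also bright in the fibroblast column, and Acta2, Myh11 and Tagln are brightest in lung pericytes.

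The 12 genes with the largest ratios at 100 CPM or more included Slc38a11, Enpep, Mir143hg, Higd1b, Gm13861, Kcnj8, Gm14005, Plxdc1, Pla2r1, Atp2a3 and Abcc9. Slc38a11, of an amino acid transporter family, was first, with 230 UMIs in 114 cells against 19 UMIs in the 3971 others, a ratio of 403 (252 to 681), and with 0 UMIs in endothelial cells, fibroblasts and neuroblasts alike. Mir143hg, the host transcript of the smooth muscle microRNAs miR-143 and miR-145, was in 134 cells at 597 CPM, a ratio of 377 (259 to 568). Plxdc1 had a ratio of 219 (148 to 336), Pla2r1, a phospholipase receptor, 214 (106 to 492), and Atp2a3, a calcium pump of the endoplasmic reticulum, 196 (123 to 329). For Gm13861 and Gm14005, unnamed transcripts, it was not given in the sources used here whether counting used strand, so an overlapping gene cannot be told apart.

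The 12 genes lowest in mural cells were mostly those of dividing cells. Top2a, which untangles replicated DNA, had 1 UMI in the members against 6812 elsewhere, a ratio of 0.00488 (0.000124 to 0.0272), and 6 of the 8 listed cell cycle genes were lower by 4-fold or more, with a median of 0.0642. Mki67 (3 UMIs), Hist1h1b (4), Hist1h2ae (3), Cdca8 (2), Cenpe (2), Rrm2 (2), Prc1 (3), 2810417H13Rik (7) and Birc5 (3) were also among the 12 lowest, beside Cldn11 of oligodendrocytes and Hbb-bs of red blood cells. Neuroblasts, the largest class beside them at 1686 cells, had 639 CPM of Top2a. Brain endothelial cells had 15.1 CPM of Top2a and fibroblasts 0 UMIs. The cell cycle list summed to 1665 CPM in neuroblasts, 61.5 CPM (42.8 to 85.5) in mural cells and 93.6 CPM (77.5 to 112) in endothelial cells. In fibroblasts the list had 10 UMIs (12.5 to 47.8 CPM). The mural interval overlapped those of endothelial cells and fibroblasts, so low cell cycle RNA did not set the mural cells apart from them. Without the neural-RNA members the 12 lowest were Stmn3, Hist1h1b, S100a10, Hmgn2, Cenpf, Hist1h2ae, Cspg5, Islr2, Sox9, Scg5, Mki67 and Ntsr2. Stmn3, a neuronal stathmin, had 1 UMI in the 154 cells, 9278 elsewhere and 45 in the 26 cells left out, and Ntsr2 is of the neural list that picked those 26. Top2a had 0 UMIs in the 154 cells and is missing from these 12 because a class at 0 is ranked as 3 counts while 1 UMI is ranked as it stands, so the order among genes at 0 to 3 UMIs carries no meaning.

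**Figure D3:**
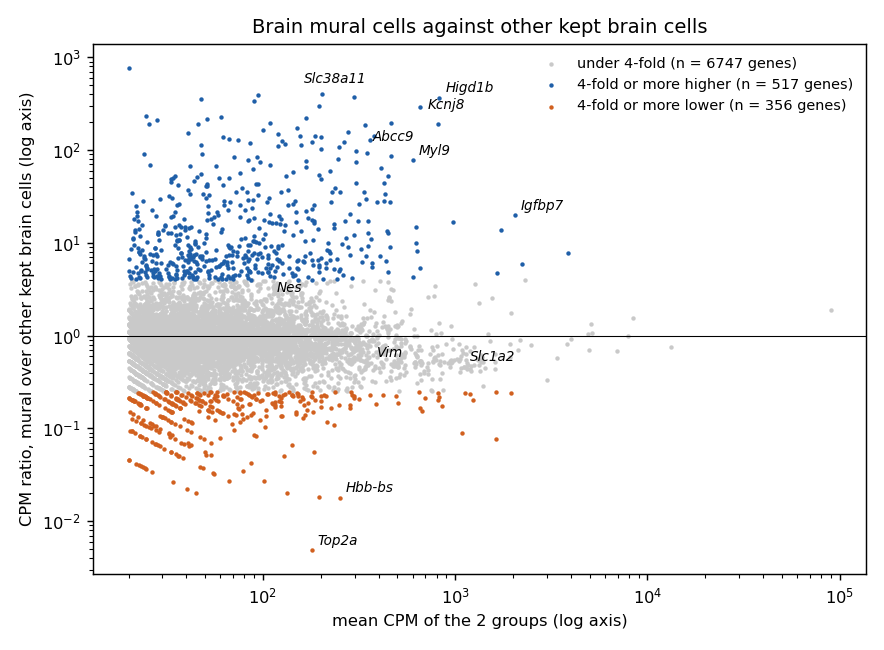
Each of the 7620 genes compared between mural and other kept brain cells: mean CPM of the 2 groups (x, log axis) against the CPM ratio (y, log axis; genes at 0 UMIs set to 3 counts). The 517 genes higher by 4-fold or more include the pericyte genes Higd1b and Kcnj8 at ratios of 366 and 292, the 356 lower ones end with Top2a, and Nes and Vim lie between.

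Markers of other cell types varied by list. Of microglial genes C1qa had 0 UMIs and C1qb 2, all 4 hemoglobin genes were lower by 4-fold or more (16 UMIs in all), and 5 of 7 oligodendrocyte genes were lower. The hemoglobin call rested on few cells, since 8891 of the 9345 Hbb-bs UMIs outside the members lay in 15 endothelial cells, and the share of cells with Hbb-bs was 2.78% among the members and 3.12% among the others. Of astrocyte and stem cell genes 0 of 10 were lower by 4-fold, with a median of 0.523, and of neuroblast genes 6 of 8, with a median of 0.214. Without the 26 neural-RNA members the counts were 10 of 10 and 8 of 8, a fall that is set by the choice, since these same genes picked the 26 cells. Of the endothelial list Emcn and Esam were higher and Ly6a and Ptprb lower by 4-fold or more, of 11 compared. The call of Ly6a was lost without the neural-RNA members, and also with scrublet doublets removed. Emcn (232 CPM) and Esam (392 CPM) were still at 0.394 (0.325 to 0.474) and 0.357 (0.308 to 0.411) of their endothelial levels. Of the fibroblast list Col1a2, Col3a1, Igf2 and Ogn were higher and Apod and Col1a1 lower, of 8 compared, with a median of 2.92, and Igf2 was at 0.128 (0.109 to 0.149) of its fibroblast level.

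The calls over all genes without the 26 cells include such neural genes and are given as a description. Of the 517 higher genes 509 (98.5%) were also called without them, among 637, and of the 356 lower genes 330 (92.7%) were, among 800.

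Nes itself, whose regulatory elements drive the reporter, was modest. It had 90 UMIs in 61 of 180 cells (0 to 5 per cell), 158 CPM against 61.9 in the other brain cells, a ratio of 2.55 (2.04 to 3.17), and 0.449 (0.354 to 0.564) of its level in brain endothelial cells. Vim, the filament often found beside it, had 248 CPM against 484, and 121 CPM without the neural-RNA members. Of the filament list Des and Lmna were higher by 4-fold or more, of 6 compared, with a median of 1.69, and without the neural-RNA members Vim was lower, as was Gfap, which is also of the neural list. Of genes that tissue digestion can induce 0 of 8 compared passed 4-fold, with a median of 0.964, and Fos had 86.0 CPM against 148. Their list summed to 1090 CPM in the members and 1452 CPM in the other brain cells. The neural-RNA members stood at 1978 CPM of it and the other 154 at 759 CPM. Without the neural-RNA members Jun (91.6 CPM) and Egr1 (24.1 CPM) were lower by 4-fold or more.

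Shares of cells with a UMI were set to 1 depth by thinning every cell to 1000 UMIs, which left out 4 of the 180. Beside each share stands that of neuroblasts, which should lack mural genes and give the level of stray RNA (1685 cells, 1 left out; median depth before thinning 4896 UMIs, against 2671). Kcnj8 was then seen in 61.4% (53.7 to 68.6) of mural cells and 0.0593% of neuroblasts, and before thinning in 81.1% and 0.178%. Higd1b was seen in 77.3% and 0.119%, Notch3 in 44.9% and 0.0593%, and Myl9 in 66.5% against 0 of 1685, which allows up to 0.178%. Acta2 was seen in 0.568% (0.0144 to 3.12), an interval that includes the neuroblast share of 0.0593%, and before thinning in 2.22% and 0.119%. Slc1a2, an astrocyte gene, was seen in 13.6% of both mural cells and neuroblasts (before thinning 26.7% and 46.0%).

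**Figure D4:**
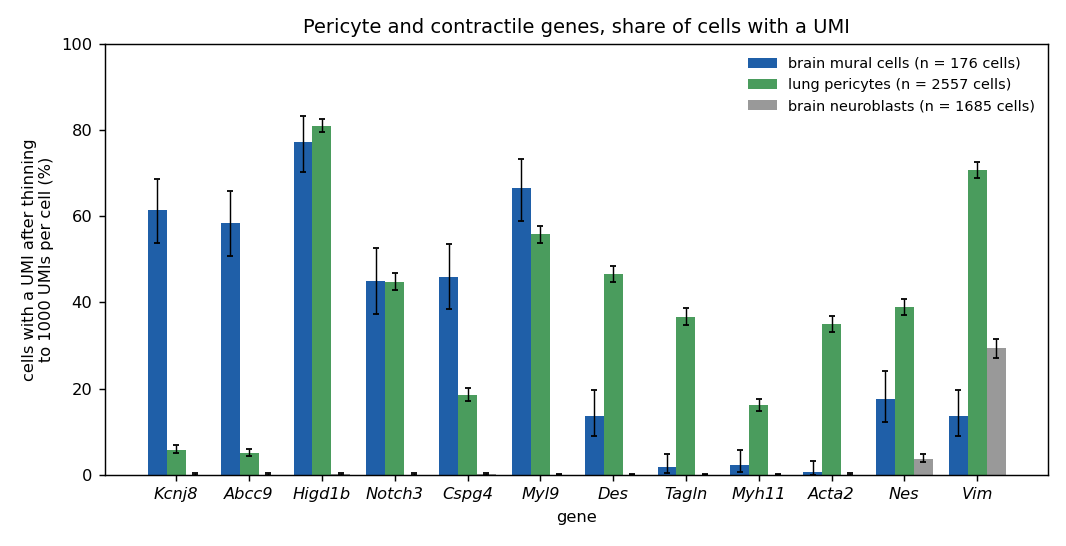
Share of cells with at least 1 UMI of a gene after thinning every cell to 1000 UMIs (y, percent) for 12 genes in brain mural cells (n = 176), lung pericytes (n = 2557) and brain neuroblasts (n = 1685), with exact 95% intervals. Of the 3 classes Kcnj8 and Abcc9 are highest in brain mural cells, Myl9 is high in both mural classes, Higd1b and Notch3, which were used to pick the lung pericytes, also stand high there, and Tagln, Myh11 and Acta2 are highest in lung pericytes.

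The mural cells were also set beside a lung class, called lung pericytes for the genes that picked it, and tissue and library cannot be told apart. They were 2581 of 5608 kept lung cells, taken by 5 or more UMIs of Pdgfrb, Cox4i2, Higd1b and Notch3 together, no fewer than of the endothelial genes, and at most 2 of Dcn, and were deeper (median 5257 UMIs). Over 7073 genes compared, the brain cells were higher by 4-fold or more in 438 (6.19%) and lower in 321 (4.54%), with a median ratio of 1.02. Genes of either rule were left out of these counts. The lung class had no limit on contractile genes: 60.9% of its cells had a UMI of Acta2 and 74.2% one of Col1a1, and the fibroblast list summed to 3380 CPM in it against 1031 CPM in the brain cells.

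Astrocyte and neuroblast genes were higher in brain in 10 of 10 and 7 of 8 compared (medians 334 and 196), and without the neural-RNA members, which these genes picked, 2 and 1 of them reached the minimum and were compared. In the transport list 10 of 11 compared were higher in brain and 1 (Aoc3) lower, with a median ratio of 179, and of 235 without the neural-RNA members. The endothelial list, which shares Slc2a1 with it, was higher in 6 of 9 compared and lower in 1 (median 35.4), and higher in 8 of 9 without those members. Of the transport genes Slc2a1 and Slc22a8 stood in the brain mural cells at 0.0482 (0.0353 to 0.0643) and 0.555 (0.471 to 0.651) of their brain endothelial levels. Slc6a20a had 475 UMIs in the brain cells and 0 in lung, at least 3694-fold higher with the lung class set to 3 counts (the two-sided interval starts at 2993), and Ggt1, a peptidase of glutathione, was at least 1143-fold higher. Slc19a1 was higher by 35.8 (30.9 to 41.6). The channel genes followed, Kcnj8 by 16.1 (14.7 to 17.7) and Abcc9 by 15.8 (14.2 to 17.7), in shares after thinning 61.4% against 5.87% and 58.5% against 5.12% (before thinning 81.1% against 18.2%, and 80.6% against 15.8%). Of the 14 transcription factors compared 5 were higher and none lower: Zic1 (361 UMIs against 0, at least 2808-fold), Foxd1 (262 against 0, at least 2038-fold), Zic4, Tbx18 and Foxc1.

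Acta2 and Myh11 were lower in the brain cells, and the contractile list was mixed. Acta2 was at 31.6 CPM in brain and 1262 CPM in lung, a ratio of 0.0251 (0.0148 to 0.0396), and Myh11 at 31.6 and 239 CPM, a ratio of 0.132 (0.0783 to 0.210). The 1 contractile cell gave 14 of the 18 Acta2 UMIs and 8 of the 18 Myh11 UMIs in brain. Without it both ratios would be lower. Tagln, Des, Tpm2, Synpo2 and Mustn1 were lower by 4-fold or more, Casq2 was higher, and 6 of the 12 compared were between. Myl9 differed little, at 1191 against 1061 CPM, a ratio of 1.12 (1.04 to 1.21). In the signalling list 3 of 11 compared were higher and 3 lower. Gucy1a3 and Pde5a, of the nitric oxide route, were lower in brain at ratios of 0.127 (0.114 to 0.141) and 0.0748 (0.0614 to 0.0902). Gucy1b3 and Prkg1, of the same route, did not reach 4-fold in either direction. Leaving out the neural-RNA members took Des (ratio 0.281) and Mustn1 (0.291) inside 4-fold. Of the 9 pericyte genes compared Abcc9, Anpep and Kcnj8 were higher and Mcam lower by 4-fold or more.

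Vim was lower in the brain cells at a ratio of 0.152 (0.127 to 0.179), as were 6 of 10 immediate early genes, with a median of 0.227. Nes stood at 158 CPM in brain and 513 CPM in lung, a ratio of 0.308 (0.248 to 0.379) that did not reach 4-fold. The 8 lowest genes in brain at 100 CPM or more were Postn, Foxf1, Gpr126, Lipg, Ltbp2, Col1a1, Tcf21 and Lepr. Postn, the matrix protein periostin, had 5 UMIs in 4 brain mural cells and 3981 CPM in lung, a ratio of 0.00221 (0.000716 to 0.00515), and Ltbp2, a binding protein of latent TGF-β, had 0 UMIs, at least 157-fold lower. Foxf1 and Tcf21, factors of lung mesenchyme, gave 1 UMI each.

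Among the 8 genes highest in brain, Slc1a2, Mt3, Igfbpl1 and Tubb3 belong to neural cells, and 271 of the 438 higher genes (61.9%) were also called without the 26 neural-RNA members, where 339 were called. Slc6a20a, Perp, Zic1 and Gm17200 filled the other places. Perp, a membrane protein of cell junctions, had 136 UMIs in 75 brain cells against 1 UMI in lung, a ratio of 3173 (560 to 126249). Of the 321 lower genes 289 were also called without those members.

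**Figure D5:**
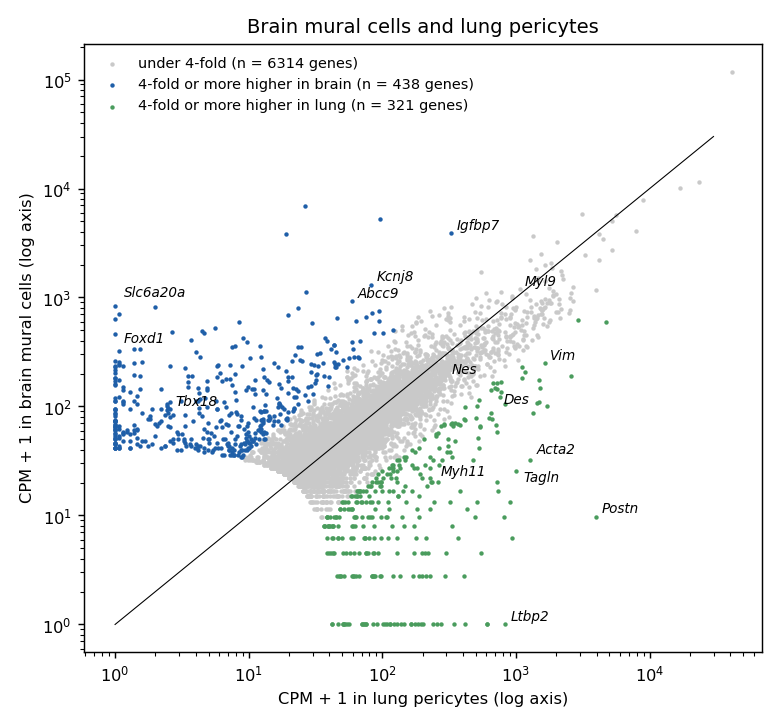
CPM plus 1 of the 7073 genes compared and the labelled genes in lung pericytes (x, log axis) and brain mural cells (y, log axis), with the line of equal levels. Slc6a20a, Foxd1, Kcnj8 and Abcc9 lie far above the line, Acta2, Tagln, Postn and Ltbp2 far below it, and Myl9 on it.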

How the data were processed

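Nes-GFP+ cells from brain and from lung were sequenced as 1 droplet library each (10x 3′, v3). The deposited values are UMI counts per gene and cell barcode, which the authors made, per the labels, with bcl2fastq 2.19.1.403, UMI-tools 1.0.0, STAR 2.7.1a and featureCounts 1.6.4 on mm10. The annotation, the strand setting and the rule for calling barcodes are not given in the sources used here. The brain table held 4640 barcodes and 26221173 UMIs and the lung library's 5981 and 36816962, and the filter of over 200 and under 4000 genes with under 40% mitochondrial UMIs, applied here, left 4151 and 5608 cells.

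Counts were summed per class and scaled to CPM (Python 3.11.15, numpy 2.4.6, pandas 2.3.3, scipy 1.17.1). Ratios carry exact conditional binomial 95% intervals, shares above 0 exact (Clopper-Pearson) ones, a share of 0 the limit that 3 counts allow, and a class at 0 UMIs was set to 3 counts over the class. The two-sided limits of such a ratio lie nearer 1 than the bound from 3 counts. Genes were compared at a mean of 20 CPM and called at 4-fold, a step that was tested on simulated counts. Named genes were those of the rules and of the gene lists, and the 12 (brain) or 8 (lung) with the largest ratios in each direction at 100 CPM or more. Endothelial cells had 5 or more UMIs of Cldn5, Flt1 and Pecam1 and more than of the mural genes. Neuroblasts had 5 or more of Dcx and Dlx1, under 5 of the mural genes and under 5 of the endothelial genes. Some lists share a gene (Des, Gfap, Pdgfra, Slc2a1). The members and the lists were chosen with earlier results of these data known, so the lists are no independent support. Doublets were kept, and scrublet (scanpy 1.11.5, expected rate 0.06) marked 44 kept brain and 74 kept lung cells. Alternatives were the cell filter, the marker limit, the endothelial limit, doublet removal, equal weight per cell and the CPM minimum. Some results of the named lists are not reported here.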

Additional observations from a re-analysis of the deposited data

How the results depend on the processing

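No paired analysis was possible because each group held 1 library, and for the same reason no library could be left out. The share of mural cells was 5.52% at 3 or more UMIs of the rule genes, and 3.71% both at 25 or more and without the neural-RNA members. The count of genes lower than in other brain cells (356) was 213 at 3 or more UMIs of the rule genes, 578 at 10 or more, 688 at 25 or more, 800 without the neural-RNA members, 621 with equal weight per cell, 600 at a minimum of 10 CPM and 89 at 100 CPM. The count of higher genes (517) was 186 at 100 CPM. Against lung, higher genes (438) were 732 at 10 CPM and 105 at 100 CPM, and lower genes (321) 111 at 100 CPM. Fewer or more genes enter at another minimum; otherwise the cause was not tested. Leaving out the neural-RNA members, the limit of 25 and lung cells taken by the brain rule were added after seeing the data. Of the values of single named genes, 1149 against other brain cells and 1421 against lung pericytes kept within their error, 444 and 351 moved, and 3 against lung changed direction. These were Mki67 with no upper limit of genes (1.35), and 2810417H13Rik with no upper limit (1.001) and at 3 or more UMIs (1.002). The alternatives for counts of genes in the contractile division were not run, since it held 1 cell. Depth limits low genes most, since 1 UMI in the members is worth 1.76 CPM and ratios that rest on 1 to 3 UMIs have wide intervals.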

Other observations

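Among the 154 members with more pericyte than neural RNA, genes differed in how far they varied from cell to cell. Over the 1494 genes with 50 or more UMIs in them, the variance across cells was 1.10 times the Poisson value at the median gene, after allowing for depth. Ptn, which the rule did not use, stood at 5.44 times and was seen in 146 cells. Vtn (12.6 times) and Rgs5 (4.27 times) chose the members, so their spread is given as a description. The following genes were chosen after their values were seen. Mgp, matrix Gla protein, an inhibitor of calcification, had 351 UMIs in 73 cells with up to 26 in 1 cell, a variance of 6.71 times. Nts, which encodes the peptide neurotensin, had 138 UMIs in 40 cells with up to 18 in 1 cell (8.77 times), and Igf2, a growth factor, had 186 UMIs in 60 cells with up to 18 (4.72 times). Kcnj8 (2.76 times), Abcc9 (2.34) and Notch3 (1.75), which belong to the list that picked the 154 cells, and Myl9 (1.80), which does not, had lower values. For some genes a single cell gave the spread: 1 cell held 102 of 125 UMIs of Ptgds, 164 of 368 of Bsg and 42 of 57 of Ly6c1.

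Xist, the RNA of the inactive X chromosome, was listed in 129 of the 180 members (71.7%) and in 3400 of the 4151 kept brain cells (81.9%). Of the Y-linked genes Ddx3y, Eif2s3y and Kdm5d no member had a UMI, 0 of 180 cells, which allows up to 1.67%, and 2 of the 4151 kept cells had one. The labels do not give the sex of the animals.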
